A study of Homo sapiens with 6 samples.

Results

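The genes of mitosis described here are 43 genes chosen by name, of 58735 genes in the count table. They are 9 cell cycle kinases, phosphatases and cyclins, 13 genes of the spindle checkpoint and of the anaphase-promoting complex (APC/C) with its enzymes and substrates, 9 kinetochore and chromosomal passenger genes, 9 motor, spindle and cytokinesis genes, and TOP2A, FOXM1 and MKI67. All 43 were found once in the table, and all 43 were among the 17574 genes that passed the filter on low counts. RNA was sequenced from 6 libraries of human colorectal cancer cells, an established line labelled SW480. Of these, 3 carry the genotype label CNOT7 knockdown and 3 the label CNOT7 control, and both groups are labelled as having had no treatment. CNOT7 is a deadenylase of the CCR4-NOT complex, which shortens the poly(A) tails of mRNAs and so marks them for decay. The study built stable knockdown lines with a lentiviral vector that expresses a short hairpin RNA from a U6 promoter and also carries copGFP and puromycin resistance. It describes a pair of hairpins against CNOT7 and does not state which of them these libraries carry. The study's text names HCT116 for the sequencing, and the labels name SW480. Nothing states whether the libraries of a group came from separate cultures, so the p-values measure only the spread between these libraries, which may be technical.

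Entry into mitosis is driven by CDK1 bound to cyclin B, which CDC25 phosphatases switch on and which Aurora and Polo kinases amplify. The spindle checkpoint holds the APC/C inactive until every kinetochore is attached to microtubules. The APC/C, with CDC20, then marks securin and cyclin B for destruction, separase cuts cohesin, and the central spindle and a contractile ring divide the cell. Most of these genes are transcribed in G2 and M phase, when the MuvB complex with B-MYB and FOXM1 acts through CHR elements of their promoters. Many of these promoters also hold CCAAT elements.

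The depth was between 23788451 and 25982493 counts per library in the control group and between 27523812 and 29104872 in the knockdown group. Levels are given as CPM, the counts relative to the library total after TMM scaling. CNOT7 stood at 169, 191 and 176 CPM in the control libraries and at 43.4, 47.2 and 38.6 CPM in the knockdown libraries. It was lower by 2.05 on the log2 scale in edgeR's quasi-likelihood test (SE 0.07, adjusted p = 2.64e-12), so the labels of the groups matched their CNOT7 levels. The summed level of 10 colorectal epithelial markers lay between 5550 and 5970 CPM in control and between 5130 and 5680 CPM in knockdown libraries. Of these markers KRT8 and KRT19, keratins of simple epithelia, were called lower. CDH1 (E-cadherin) and VIL1 (villin) were called higher, by 0.51 and 0.72 on the log2 scale. The gut markers LGALS4 and CDX1 had at most 9 counts in any library. Markers of immune, endothelial and fibroblast cells, 8 in all, summed to between 9.24 and 12.7 CPM, with COL3A1 and DCN at 0 in all 6 libraries.

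CNOT7 knockdown was accompanied by small falls in part of the mitotic genes, and none of the 43 was called higher. The share called lower was 20.9%, against 11.9% of all tested genes and 20.9% of genes in the same range of abundance. The 9 genes called lower were KIF23, CCNA2, FOXM1, CDCA8, ANLN, ECT2, MKI67, CENPF and CDC20. Their log2 fold changes lay between -0.32 and -0.15, so that KIF23 fell by 19.8% and CDC20 fell by 9.59%. The core mitotic kinases CDK1, PLK1, AURKA and AURKB, the mitotic cyclins CCNB1 and CCNB2, and the checkpoint genes BUB1, BUB1B, BUB3, MAD2L1 and TTK did not pass the test. RNA was pooled over all cells of a culture, so fewer cells in G2 and M phase and less RNA per such cell cannot be told apart.

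The calls came from the quasi-likelihood test of edgeR, with p-values adjusted over all 17574 genes by the Benjamini-Hochberg method, at a threshold of 0.05. The 9 genes are 20.9% of the 43, against 11.9% of all tested genes called lower and 13.3% called higher. The mitotic genes are expressed at higher levels than most genes, with a median of 7.3 log2 CPM against 4.07. Among the 5716 genes within the same range of abundance, 20.9% were called lower and 10.2% higher. This range, from 5.28 to 9.76 log2 CPM, leaves out PRC1, and without PRC1 21.4% of the mitotic genes were called lower. The share of mitotic genes called lower was thus close to that of genes of like abundance. Of the 43, 0 were called higher. Below 0 lay the log2 fold changes of 32 of the 43 genes, with a median of -0.061. Over all tested genes 49.3% were below 0 with a median of 0.0039, and in the range of abundance of the mitotic genes 62.5% were below 0 with a median of -0.05. In 10 of the 43 genes every knockdown library was below every control library, against 18.2% of all genes, and in 1, AURKA, every knockdown library was above, against 20.6% of all genes. At an unadjusted p under 0.05 the only gene higher was PTTG1, and DESeq2 called 0 genes higher. For 30 of the 34 genes that were not called, the 95% interval of the log2 fold change lay within 0.3 of 0 on both sides. The log2 fold changes of the called genes other than KIF23 were also within 0.3 of 0. The bound thus does not exclude changes as large as theirs.

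**Figure D1:**
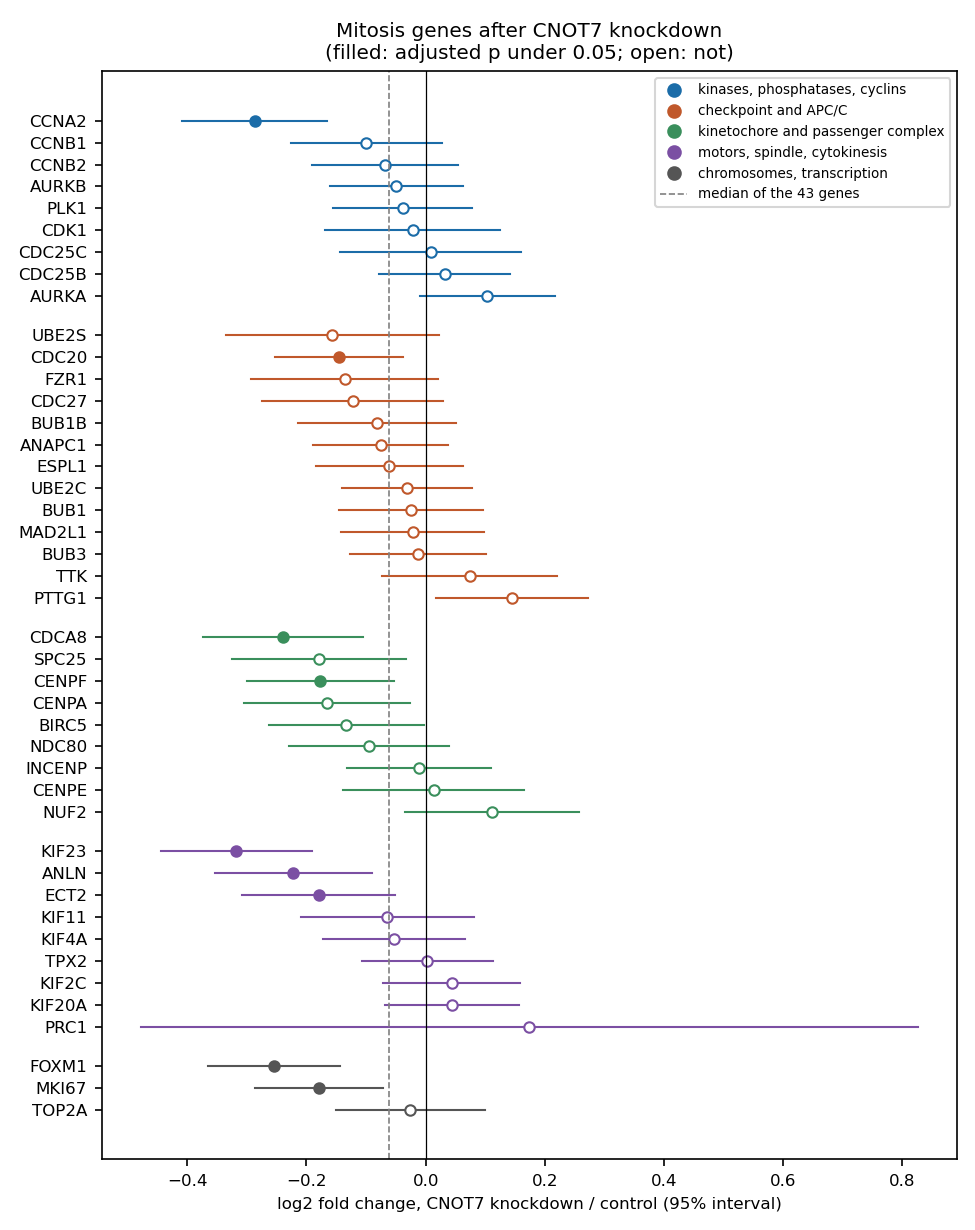
Log2 fold change of CNOT7 knockdown against control for the 43 mitotic genes (horizontal axis, points with 95% intervals), grouped by role and sorted within each group. Filled points mark the 9 genes with an adjusted p under 0.05, all on the left of 0, the dashed line marks the median of -0.061, and PRC1 has by far the widest interval of the 43.

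The count of calls depended on single libraries and on scaling. It was 4 without control replicate 2, 4 without control replicate 3, 5 without knockdown replicate 1, and 4 lower against 2 higher (AURKA and PTTG1) when the trend with abundance was removed by cyclic loess, where 10.5% and 12.4% of all genes were called lower and higher.

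The promoters of these genes are shown because CHR and CCAAT elements are a known feature of many G2 and M phase genes. RefSeq promoters on GRCh38.p14, each 300 bases from 250 before to 50 after the start site, were matched for 36 of the 43 genes. The CHR element was searched as TTTGAA or TTCGAA and the CCAAT box as CCAAT, both on either strand. Other forms of the CHR were not searched, so a promoter without a match may still hold such an element. A CHR match was found in 25 of the 36 promoters (69.4%), against 16.6% of 27305 promoters of the same length, and a CCAAT match in 26 (72.2%), against 35.7%. Both matches were present in 19 promoters, and they overlapped by shared bases in CDCA8 and MKI67. In 16 promoters a CHR match began between 60 bases before and 10 bases after the start site. The E2F words TTTCGCGC, TTTGGCGC, TTTCCCGC and TTTGCCGC were found in 2 promoters (CDK1 and CENPA, 5.56%), against 3.33% of all promoters. CDC25B, CDC25C, CENPE and KIF2C held neither a CHR nor a CCAAT match. Of the called genes, 8 had a promoter in the table, and 7 of the 8 held a CHR match and 7 of the 8 a CCAAT match. Of the genes not called, 18 of 28 held a CHR match and 19 of 28 a CCAAT match. The median log2 fold change was -0.076 for the 25 genes with a CHR match and 0.0083 for those without. For genes with and without a CCAAT match it was -0.066 and -0.034. Among the called genes the order for the CHR was the reverse, with -0.18 with a match and -0.29 without, where CCNA2 alone had none. These are descriptions of the list with no test.

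The last 150 bases before the start site are given 5′ to 3′ on the strand of the gene, with CHR and CCAAT matches in capitals (ATTGG is CCAAT read on the other strand, and TTCAAA is TTTGAA). KIF23, CDCA8, ANLN, MKI67 and CDC20 are called genes with a CHR match. CCNA2 is a called gene without a match to the CHR words searched, which does not show that it lacks a CHR. PLK1, CCNB2 and KIF4A hold matches to both elements and were not called. The windows are chr15:69414199-69414348 (KIF23, plus strand), chr1:37692366-37692515 (CDCA8, plus), chr7:36389712-36389861 (ANLN, plus), chr10:128126424-128126573 (MKI67, minus), chr1:43358831-43358980 (CDC20, plus), chr4:121823884-121824033 (CCNA2, minus), chr16:23678739-23678888 (PLK1, plus), chr15:59104996-59105145 (CCNB2, plus) and chrX:70289954-70290103 (KIF4A, plus).
KIF23: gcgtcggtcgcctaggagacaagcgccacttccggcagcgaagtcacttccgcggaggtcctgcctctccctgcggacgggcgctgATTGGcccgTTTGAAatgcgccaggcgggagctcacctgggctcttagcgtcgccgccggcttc
CDCA8: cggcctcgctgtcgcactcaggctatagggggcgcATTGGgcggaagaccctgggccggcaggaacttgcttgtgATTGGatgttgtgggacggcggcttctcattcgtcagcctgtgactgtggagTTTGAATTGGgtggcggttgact
ANLN: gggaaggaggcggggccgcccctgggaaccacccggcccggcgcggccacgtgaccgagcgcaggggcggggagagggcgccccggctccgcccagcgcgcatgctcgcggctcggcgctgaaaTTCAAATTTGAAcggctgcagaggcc
MKI67: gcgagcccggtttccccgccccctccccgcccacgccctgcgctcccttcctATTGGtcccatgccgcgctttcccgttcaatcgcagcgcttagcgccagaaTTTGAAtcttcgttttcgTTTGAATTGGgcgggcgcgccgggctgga
CDC20: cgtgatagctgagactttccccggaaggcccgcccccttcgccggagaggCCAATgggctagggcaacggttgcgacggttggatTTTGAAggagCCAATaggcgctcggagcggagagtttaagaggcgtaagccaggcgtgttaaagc
CCNA2: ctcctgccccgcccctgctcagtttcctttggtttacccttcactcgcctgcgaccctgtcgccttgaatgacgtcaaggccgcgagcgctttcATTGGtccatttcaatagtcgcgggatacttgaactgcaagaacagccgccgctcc
PLK1: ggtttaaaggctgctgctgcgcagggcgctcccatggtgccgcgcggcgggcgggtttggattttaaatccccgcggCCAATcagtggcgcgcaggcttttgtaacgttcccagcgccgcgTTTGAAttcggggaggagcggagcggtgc
CCNB2: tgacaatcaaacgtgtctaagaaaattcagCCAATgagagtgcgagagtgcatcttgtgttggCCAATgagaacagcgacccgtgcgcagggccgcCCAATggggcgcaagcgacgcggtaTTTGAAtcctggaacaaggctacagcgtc
KIF4A: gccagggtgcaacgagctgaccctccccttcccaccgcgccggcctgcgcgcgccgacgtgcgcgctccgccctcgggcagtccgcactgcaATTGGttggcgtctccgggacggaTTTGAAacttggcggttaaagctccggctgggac
The sequences show that the same pair of elements stood in promoters of genes that were called and of genes that were not. In KIF23 the CCAAT box began at -64 and the CHR at -55 from the start site, in CDCA8 and MKI67 they ran into each other as TTTGAATTGG, and in ANLN a pair of CHR matches on opposite strands stood side by side with no CCAAT match.

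KIF23, the kinesin of the centralspindlin complex that bundles the central spindle, had the largest fall of the 43. It stood at 184, 206 and 194 CPM in the control libraries and at 155, 166 and 147 CPM in the knockdown libraries. Every knockdown library was below every control library. The log2 fold change was -0.32 (SE 0.06, Benjamini-Hochberg adjusted p = 0.000871, edgeR's quasi-likelihood test). The gene lies at chr15:69414246-69448427 on GRCh38. ECT2, the RhoA exchange factor that centralspindlin recruits to the division plane, measured 313, 348 and 323 CPM in control and 279.6, 316 and 273 CPM in knockdown libraries. Its highest knockdown library, replicate 2, lay above its lowest control library, so the groups overlapped. The log2 fold change was -0.18 (SE 0.06, adjusted p = 0.0395). ANLN (anillin), a scaffold of the contractile ring, stood at 749, 848 and 745 CPM against 652, 729 and 626 CPM, with no overlap. It was lower by 0.22 on the log2 scale (SE 0.06, adjusted p = 0.0146).

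The remaining motor and spindle genes were not called. KIF11 (the Eg5 motor that separates spindle poles) had a log2 fold change of -0.06, KIF4A (a chromokinesin) -0.05, TPX2 (an activator of AURKA on the spindle) 0.003, KIF2C (a microtubule depolymerase) 0.04 and KIF20A (a kinesin of the central spindle) 0.04. TPX2, the most abundant of them, measured 457, 495 and 483 CPM in control and 482, 501 and 456 CPM in knockdown libraries. Its 95% interval ran from -0.11 to 0.11. PRC1, which cross-links antiparallel microtubules at the midzone, could not be measured well. It had 33, 14 and 30 counts in the control libraries and 40, 26 and 34 in the knockdown libraries, about 1 CPM. The next lowest gene of the 43 in any library was CDC25C, at 35.8 CPM. In GENCODE release 29, 57.6% of the exonic bases of PRC1 are shared with a gene of the same strand, AC068831.7, which itself had 233 to 284 counts per library. The log2 fold change of PRC1 was 0.17 with an interval from -0.48 to 0.83. Whether the low counts come from reads that match both genes was not tested.

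Among the kinases, phosphatases and cyclins, CCNA2 (cyclin A2, the CDK partner of S and G2 phase) was the gene called lower. It stood at 169, 178 and 163 CPM in control and at 133, 148 and 137 CPM in knockdown libraries. The groups did not overlap, and the log2 fold change was -0.29 (SE 0.06, adjusted p = 0.00145 in edgeR's quasi-likelihood test). CCNA2 lies at chr4:121816444-121823933, and 9.08% of its exonic bases are shared with EXOSC9 on the opposite strand. CCNB1 and CCNB2, the B-type cyclins of CDK1, had log2 fold changes of -0.1 and -0.07. CCNB1 measured 246, 267 and 258 CPM against 225, 261 and 234 CPM, and its groups overlapped. The counts of CDK1 itself gave 171, 192 and 168 CPM against 166, 194 and 164 CPM, a log2 fold change of -0.02 with an interval from -0.17 to 0.12. Here replicate 2 was the highest library of both groups.

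AURKA, the centrosome and spindle kinase, measured 165, 175 and 176 CPM in control and 182, 191 and 182 CPM in knockdown libraries. Every knockdown library was above every control library, and the log2 fold change of 0.1 (SE 0.05) did not pass the test (adjusted p = 0.174, edgeR). AURKB, the kinase of the chromosomal passenger complex, stood at 131, 129.5 and 134.5 CPM against 125, 127.5 and 129.4 CPM, also without overlap and with a log2 fold change of -0.05 (adjusted p = 0.548). The log2 ratio of AURKA to AURKB was 0.33, 0.43 and 0.39 in control and 0.54, 0.58 and 0.49 in knockdown libraries. The groups of ratios did not overlap, and the difference of 0.15 had the smallest p that 3 against 3 libraries allow in the two-sided exact permutation test, 0.1 (0.6 after Benjamini-Hochberg adjustment over 6 pairs). PLK1, the Polo kinase of mitotic entry and cytokinesis, measured 130.5, 129 and 120.1 CPM against 122, 124 and 125 CPM, a log2 fold change of -0.04 with an interval from -0.15 to 0.08. CDC25B and CDC25C, phosphatases that activate CDK1, had log2 fold changes of 0.03 and 0.0083.

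In the checkpoint and APC/C group CDC20, the coactivator of the APC/C at anaphase and the target of the checkpoint, was the gene called lower. It stood at 203, 199.6 and 202 CPM in control and at 181, 179 and 187 CPM in knockdown libraries, with no overlap. The log2 fold change was -0.15 (SE 0.05, adjusted p = 0.0437 in edgeR's quasi-likelihood test), the call nearest to the threshold. PTTG1 (securin, the inhibitor of separase) measured 141.5, 154 and 146 CPM against 153.5, 175 and 159 CPM. Its highest control library lay above its lowest knockdown library, and the log2 fold change of 0.15 (SE 0.06) had an adjusted p of 0.09. ESPL1 (separase) gave a log2 fold change of -0.06. The checkpoint kinases BUB1 and TTK had -0.03 and 0.07, and the checkpoint proteins BUB1B, BUB3 and MAD2L1 had -0.08, -0.01 and -0.02. FZR1, the APC/C coactivator of mitotic exit and G1, had a log2 fold change of -0.14, and the APC/C subunits CDC27 and ANAPC1 had -0.12 and -0.08.

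The pair of ubiquitin-conjugating enzymes that work with the APC/C differed in their spread. UBE2C, which starts ubiquitin chains, stood at 204, 209.8 and 219 CPM in control and at 205, 210.0 and 203.5 CPM in knockdown libraries, a log2 fold change of -0.03. UBE2S, which extends them, stood at 213, 183 and 195 CPM against 178, 149 and 203 CPM, a log2 fold change of -0.16 with an interval from -0.34 to 0.02. Knockdown replicate 3 lay inside the control range, and replicate 2 was the lowest library of both groups. The log2 ratios of the other pairs overlapped between the groups, and the exact permutation p was 0.5 for CCNB1 to CCNB2, 0.9 for CDC25B to CDC25C, 0.4 for BUB1 to BUB1B, 1 for CDC20 to FZR1 and 0.4 for UBE2C to UBE2S.

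Of the 9 kinetochore and passenger genes 2 were called lower, and the median log2 fold change was -0.13. CDCA8 (borealin, a subunit of the chromosomal passenger complex) measured 88.7, 82.2 and 88.2 CPM in control and 78.3, 72.5 and 68.8 CPM in knockdown libraries. There was no overlap, and the log2 fold change was -0.24 (SE 0.06, adjusted p = 0.0105 in edgeR's quasi-likelihood test). The other passenger subunits were not called. BIRC5 (survivin) had a log2 fold change of -0.13 (adjusted p = 0.128) and INCENP, the scaffold of the complex, had -0.01. CENPF, a large kinetochore protein of G2 and M phase, measured 545.8, 615 and 581.6 CPM against 517, 547 and 477 CPM. Knockdown replicate 2 was just above control replicate 1, so the groups overlapped, and the log2 fold change was -0.18 (SE 0.06, adjusted p = 0.0346).

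NDC80, NUF2 and SPC25 belong to the NDC80 complex, which holds the microtubule end at the kinetochore. They did not pass the test and lay on both sides of 0. SPC24, the remaining subunit and not among the 43, had a log2 fold change of 0.03 (adjusted p = 0.882, edgeR). SPC25 measured 47.3, 54.1 and 50.99 CPM in control and 44.8, 46.4 and 43.4 CPM in knockdown libraries, a log2 fold change of -0.18 without overlap (adjusted p = 0.0683, edgeR). NUF2 measured 44.7, 50.5 and 48.6 CPM against 51.2, 54.4 and 49.7 CPM, a log2 fold change of 0.11 with overlap (adjusted p = 0.266). NDC80 itself had -0.1. The difference between SPC25 and NUF2 was not tested. CENPA, the histone H3 variant of centromeres, had a log2 fold change of -0.17 without overlap (adjusted p = 0.0778), and 6.96% of its exonic bases are shared with SLC35F6 on the same strand. CENPE, the kinetochore kinesin, had 0.01.

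FOXM1 and MKI67 were called lower and TOP2A was not. FOXM1, the transcription factor of G2 and M phase genes, stood at 182, 174 and 176 CPM in control and at 152, 144 and 149 CPM in knockdown libraries. The libraries of each group lay close together and far from the other group. The log2 fold change was -0.25 (SE 0.05, adjusted p = 0.00171 in edgeR's quasi-likelihood test). FOXM1 lies at chr12:2857681-2877155, and 15.9% of its exonic bases are shared with ITFG2 on the opposite strand, which had a log2 fold change of -0.21 (adjusted p = 0.0831). The counting is not stated to use strand, so reads from the shared bases may belong to either gene. MKI67, the Ki-67 protein that coats mitotic chromosomes and marks cycling cells, measured 884, 959 and 919 CPM against 855, 809.8 and 775 CPM, with no overlap. It was lower by 0.18 on the log2 scale (SE 0.05, adjusted p = 0.0163). TOP2A (topoisomerase II alpha, which untangles sister chromatids) measured 807, 918 and 851 CPM against 816, 915 and 800.3 CPM, a log2 fold change of -0.03 with an interval from -0.15 to 0.1.

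**Figure D2:**
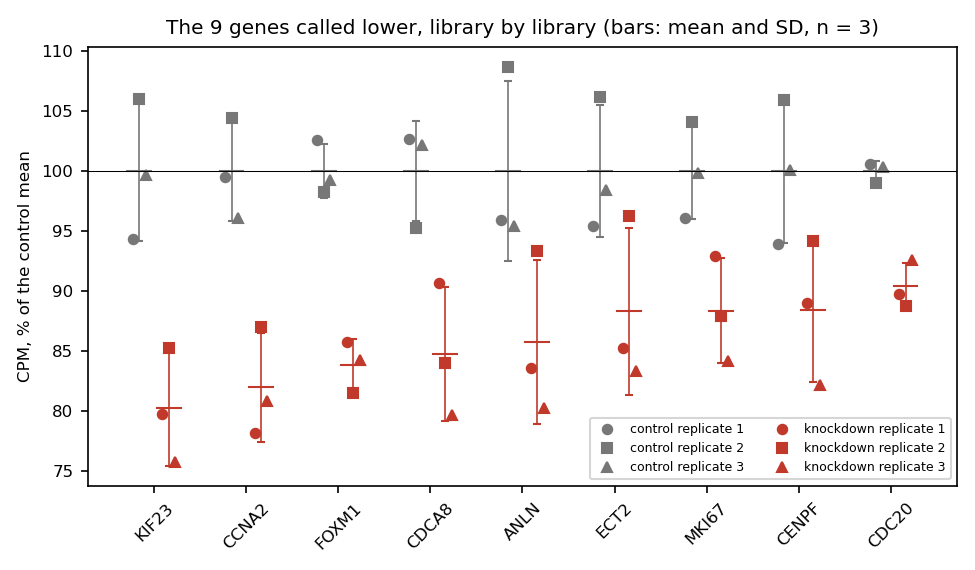
CPM of the 9 genes called lower in each of the 6 libraries, as a percent of the control mean of the gene (vertical axis, which does not start at 0). Grey is control and red is knockdown, circles, squares and triangles are replicates 1, 2 and 3, and bars show mean and SD (n = 3 per group). The groups are apart in 7 genes and overlap in ECT2 and CENPF, and the squares, replicate 2, top both groups in KIF23, CCNA2, ANLN, ECT2 and CENPF.

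The calls differed in how far they rested on single libraries (Benjamini-Hochberg adjusted p-values of edgeR's quasi-likelihood test). KIF23, CCNA2 and FOXM1 were called lower in all 14 alternative analyses. CDCA8 was called in 13 and had an adjusted p of 0.0592 without control replicate 3. ANLN was called in 10, and on leaving out a library its adjusted p was 0.059 without control replicate 2, 0.0617 without knockdown replicate 1 and 0.0544 without knockdown replicate 3. MKI67 was called in 10, with 0.0528 without control replicate 2, 0.0598 without control replicate 3 and 0.0647 without knockdown replicate 3. CENPF and ECT2 were each called in 9. The adjusted p of CENPF was 0.113 and 0.0994 without control replicates 2 and 3, and 0.0787 and 0.136 without knockdown replicates 1 and 3. That of ECT2 was 0.126, 0.0858, 0.139 and 0.129 in the same order. CDC20 was called in 8, and without any 1 of the 3 control replicates or of knockdown replicates 1 and 2 its adjusted p lay between 0.0573 and 0.146, with log2 fold changes between -0.15 and -0.13. With cyclic loess offsets ANLN, MKI67, CENPF, ECT2 and CDC20 all lost their calls and their log2 fold changes were nearer to 0. They were -0.15 for ANLN, -0.1 for MKI67 and CENPF, -0.11 for ECT2 and -0.09 for CDC20, with adjusted p of 0.0657, 0.129, 0.162, 0.157 and 0.237 in that order.

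Levels were compared between genes as control CPM per kilobase of gene length, a quantity that still depends on which isoforms are used. UBE2C was highest at 164 CPM per kilobase, followed by TPX2 and TOP2A at 133 each, ANLN at 129.8, CCNB1 at 100.5 and CDC20 at 98.97. At the low end were CENPE at 12.3, CDC25C at 11.6 and FZR1 at 11.2 CPM per kilobase, with PRC1 far below at 0.186. The coactivator CDC20 was thus far above its counterpart FZR1, and CDC25B (59.2) far above CDC25C. AURKA (58.7) and AURKB (58.8) had nearly the same level per length in control cells. Of the genes called lower, ANLN had the highest level per length and KIF23 the lowest, at 29.6 CPM per kilobase, and the 15 genes below KIF23 were not called.

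**Figure D3:**
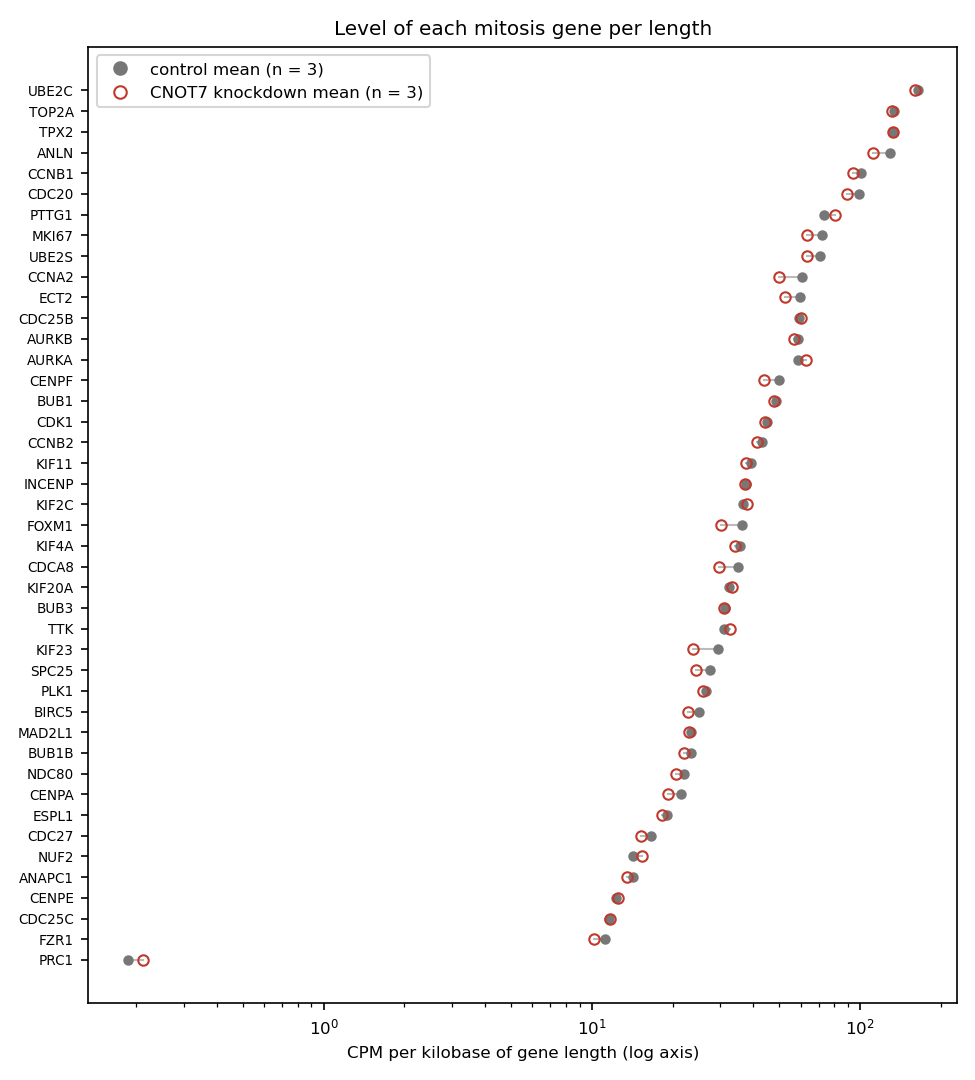
Mean level of each of the 43 genes as CPM per kilobase of gene length (horizontal log axis), with filled grey points for control and open red points for CNOT7 knockdown (n = 3 each). The knockdown point lies left of the control point in 32 genes, the shifts are small beside the differences between genes, and PRC1 stands alone at 0.186 in control.

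The spread between replicates of the mitotic genes followed the GC content of their transcripts. GC content ranged from 36.7% (CENPE and CDK1) to 63.3% (FZR1), with a median of 46.5% over the 42 genes without PRC1 and 50.3% over all tested genes. The deviation of control replicate 2 from the other control libraries, on the log2 scale, correlated with GC content with r = -0.867 over the 42 genes, and that of knockdown replicate 2 with r = -0.878. In control replicate 1 and knockdown replicate 3 the sign was the opposite, with r of 0.841 and 0.806. The deviations within a group cancel out for each gene, so an opposite sign in some other library follows from the arithmetic. Across the 8921 genes above a mean of 4 log2 CPM the values were -0.726 for control replicate 2 and -0.772 for knockdown replicate 2. The genes share their libraries and are not independent, so these correlations are descriptions. The log2 fold change between the groups showed little relation to GC content in the 42 genes (r = -0.05). UBE2S at 63.2% GC and CDK1 at 36.7% GC show the pattern, since replicate 2 was the lowest library of each group for UBE2S and the highest for CDK1.

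**Figure D4:**
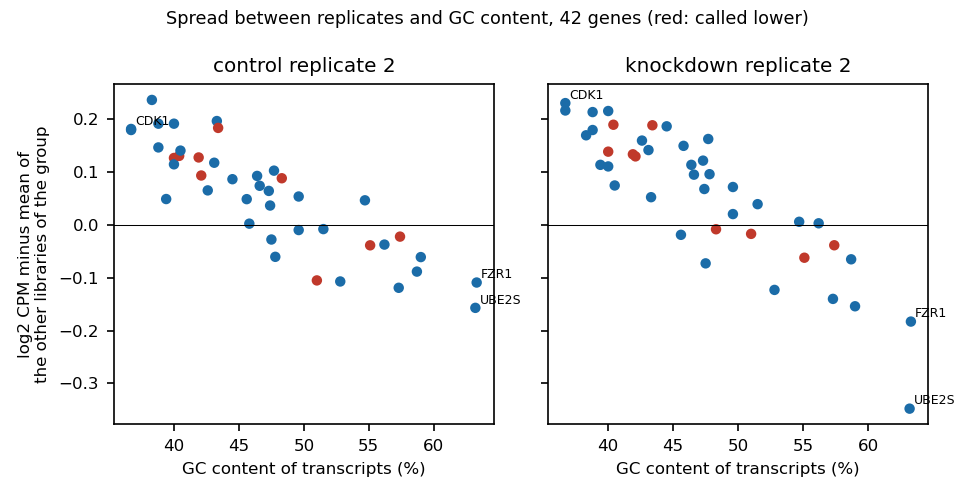
GC content of the transcripts of 42 mitotic genes (horizontal axis, percent) against the log2 CPM of replicate 2 minus the mean of the other libraries of its group (vertical axis), for control on the left and knockdown on the right. Red points are the 9 genes called lower. In both groups AT-rich genes such as CDK1 are above 0 and GC-rich genes such as UBE2S and FZR1 below it.

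With the GC trend of each library removed before the test, an analysis added after the data were seen, 14 of the 43 genes were lower, among them all 9, against 17.1% of all genes. Those added were BIRC5, CENPA, FZR1, SPC25 and UBE2S. In the same analysis 4 genes were higher, against 19.5% of all genes. They were PTTG1 (log2 fold change 0.15), NUF2 (0.15), TTK (0.11) and AURKA (0.11), with adjusted p of 0.00763, 0.015, 0.0235 and 0.0202 in edgeR's test. With the GC trend removed, the shares among genes of like abundance were not computed, so 14 of 43 has no such share beside it.

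Other genes of mitosis, in 6 lists with 121 tested genes and none of the 43 among them, were also lower more often than higher. Of the 121, 40 were called lower (33.1%) and 2 higher, NEK2 and RBL2, with a median log2 fold change of -0.15. Over all tested genes 11.9% were called lower and 13.3% higher, and 20.9% and 10.2% in the range of abundance of the 43 genes. The lists were chosen with results of these data known, so their direction is not independent evidence. Of the 16 other kinases and CDK regulators 6 were lower and 1 higher. CDC25A, the phosphatase that activates CDK2 and CDK1, fell from 62.2 ± 1.79 to 46.7 ± 1.8 CPM (SD, n = 3), with -0.41 on the log2 scale. NEK2, a kinase of centrosome separation, rose from 59 ± 4.59 to 72.3 ± 5.29 CPM (log2 fold change 0.29, adjusted p = 0.00601, edgeR). Of the 20 other APC/C and checkpoint genes 3 were lower (15%), between the 11.9% of all tested genes and the 20.9% in that range. The largest fall was that of ZWINT, a kinetochore partner of the checkpoint, with -0.48.

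At the centromere and kinetochore 10 of 31 genes were lower and 0 higher. CENPN, which binds CENPA nucleosomes, had the largest fall, a log2 fold change of -0.42. KNL1, the kinetochore platform for BUB1, had -0.27, and SKA2 and SKA3, which track microtubule ends, had -0.34 and -0.24. Among the 21 other motor, spindle and cytokinesis genes 5 were lower (23.8%), above the share of all tested genes and near the 20.9%. Of these, KIF18B, a plus-end kinesin, was at -0.38. Of the 17 condensin and cohesin genes 7 were lower (41.2%), with STAG1, a cohesin subunit, at -0.4. For CENPN and STAG1, 22.8% and 21.2% of the exonic bases are shared with genes of the opposite strand.

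Of the 6 lists, that of DREAM, MuvB, E2F and NF-Y genes had the highest share of genes called lower, and differences between the lists were not tested. Of 16 DREAM, MuvB, E2F and NF-Y genes 9 were lower (56.2%) and 1 higher, against 11.9% and 13.3% of all tested genes. E2F8, a repressor of the E2F family, fell from 33.6 ± 2.37 to 23.9 ± 0.376 CPM (SD, n = 3), with -0.49 on the log2 scale (adjusted p = 0.000134, edgeR's quasi-likelihood test). LIN52, a MuvB subunit, had -0.43, and MYBL2 (B-MYB, which joins MuvB at CHR promoters) had -0.21. RBL2 (p130, the pocket protein of the DREAM complex in resting cells) was higher by 0.19 on the log2 scale (adjusted p = 0.0482, edgeR), and its relative RBL1 (p107) was lower, with -0.32. For RBL2 18.2% of the exonic bases are shared with genes of the opposite strand. The call of RBL2 was lost in 8 of 14 alternatives, with an adjusted p of 0.0677 with DESeq2, 0.0553 with RLE factors and 0.0715 without a filter. It was also lost without control replicate 1 (0.182) or 3 (0.218) and without knockdown replicate 1 (0.0907), 2 (0.114) or 3 (0.0688). The call of NEK2 held in all 14. The count of genes higher in the 6 lists was 11 of 121 with the GC trend removed, where 19.5% of all genes were called higher. It was 1 with DESeq2. The lower count was 25 without control replicate 3 and 25 without knockdown replicate 1.

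**Figure D5:**
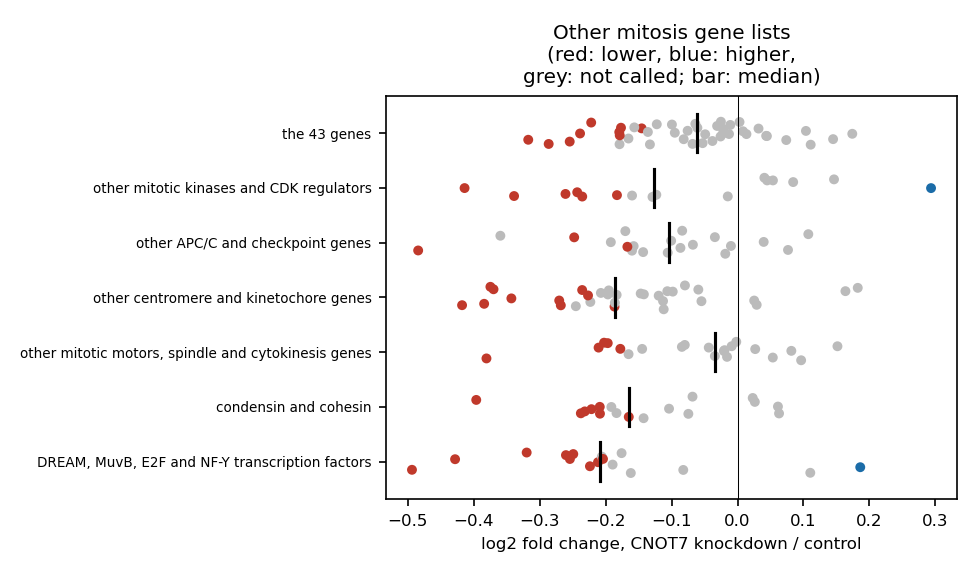
Log2 fold change of CNOT7 knockdown against control (horizontal axis) for the 43 mitotic genes and for the 6 other lists of mitosis genes, 1 point per gene, spread vertically for legibility. Red points were called lower, blue points higher and grey points not called, and black bars are medians, which lie below 0 in every list and lowest for the DREAM, MuvB, E2F and NF-Y genes.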

How the data were processed

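Poly(A) status, read length and strand setting are not given in the sources used here. Total RNA was extracted with TRIzol and libraries were prepared with the NEBNext Ultra kit. The authors deposited raw read counts per gene with a gene length, for 6 libraries. The submitters' processing notes name CASAVA 1.8, fastp, HISAT2 2.0.5, featureCounts 1.5.0-p3, DESeq2 1.20.0 and GRCh38, without parameters. All 58735 genes matched GENCODE release 29 coordinates. The number of columns from other samples was 0.

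Counts were tested in R 4.3.3 with edgeR 4.0.16 (filterByExpr, TMM, glmQLFit and glmQLFTest, group only) over 17574 genes, with Benjamini-Hochberg adjustment at 0.05. SEs were derived from the log2 fold change and the F statistic (its size over the root of F). Replicate pairs differed by more than sampling noise (chi-square per degree of freedom 3.25 to 10.6), so none was treated as a copy. The steps were tested on simulated data. Alternatives were DESeq2 1.42.0, RLE factors, no filter, a minimum of 10 counts per library, a replicate block, cyclic loess offsets (limma 3.58.1, 3 iterations), protein-coding genes only and each library left out. Offsets that remove each library's GC trend (loess, span 0.3) were added after seeing the data. The members and lists were chosen with earlier results of these data known. Named genes were CNOT7, all members, for each other list the called genes with the largest rise and fall, and genes a result turned on. KNL1, SKA2, SKA3, LIN52, MYBL2 and RBL1 were named after their values were seen. Pair ratios were tested with SciPy 1.17.1. Promoters are from RefSeq (GRCh38.p14), and GC content is the mean over a gene's protein-coding transcripts, or over all its transcripts where it has none.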

Additional observations from a re-analysis of the deposited data

How the results depend on the processing

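The number of mitotic genes called lower was 9, and it was 16 with a replicate block, 4 with cyclic loess offsets, 14 with the GC trend removed, and between 4 and 11 with 1 library left out. The number called higher was 0, and it was 2 with the block, 2 with loess and 4 with the GC trend removed. Of all genes, loess called 10.5% lower and 12.4% higher, and removal of the GC trend 17.1% and 19.5%. Such shares were not computed for the other alternatives, so the counts there show only the dependence on processing. Shares called among genes of like abundance were not computed for any alternative. All 9 genes were among the 16 called under the block. The block also called AURKA and PTTG1 higher. Correlations of same-numbered libraries' deviations over all tested genes were 0.0228, 0.153 and -0.0153, and the others lay between -0.151 and 0.132. The correlation of the deviations with GC content, over 8921 genes, had the same sign in same-numbered libraries. In control and knockdown it was 0.673 and 0.322 for replicate 1, -0.726 and -0.772 for replicate 2, and 0.237 and 0.698 for replicate 3. Whether the replicate numbers mark pairs is not stated and is not settled by these values. The median log2 fold change of the 43 genes was -0.00505 with loess, where the median of all genes was -0.0107, and 7 genes that were not called changed sign and moved by more than their SE. In the 6 other lists the number higher was 2 in the analysis reported, 1 with DESeq2, 1 with RLE factors, 1 without a filter, 6 with the block, 6 with loess, 11 with the GC trend removed, and between 1 and 4 with 1 library left out. The number lower lay between 25 and 53 with 1 library left out. No member that was called changed direction in any of the 14 alternatives, and CNOT7 kept its call in all of them. With 3 libraries per group and SEs near 0.06, log2 changes near 0.1 lie within the error of these counts.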

Other observations

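PRC1 was not the only mitosis gene with low counts and a large share of exonic bases in common with a gene of the same strand. NUSAP1, a protein that bundles spindle microtubules, shares 62.2% of its exonic bases with AC087721.2 and measured 11.6 ± 1.33 CPM in control and 11.4 ± 2.57 CPM in knockdown libraries (SD, n = 3). CENPS, a subunit of the kinetochore, shares 64.7% with CENPS-CORT and measured 2.52 ± 0.201 and 2.16 ± 0.422 CPM. None of the 3 genes passed the test, and what their levels would be with the shared reads counted was not tested.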
